A study of Anser cygnoides with 12 samples.

Results

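The nuclear genes for the subunits of oxidative phosphorylation were examined in the ileum of geese, the final stretch of the small intestine. Members were taken by gene name: NDUFA, NDUFAB1, NDUFB, NDUFC, NDUFS and NDUFV genes, SDHA to SDHD, UQCR genes, COX4 to COX8 genes and ATP5 genes, without the NDUFAF assembly factors. A member also had to exceed 1 FPKM (fragments scaled to transcript length and library size) in at least 4 of 12 libraries. Of the 19836 genes in the deposited table, 66 met the rule: 29 in complex I, 4 in complex II, 7 in complex III, 11 in complex IV and 15 in complex V. The table named 49 of them directly, and the other 17 carried placeholder names that were resolved through their gene identifiers. These 17 were NDUFA2, all 7 members of complex III and all COX genes of complex IV. Their names rest on a name table of the Taihu goose reference assembly. NDUFA4 and its homolog NDUFA4L2 were counted with complex IV, in which NDUFA4 is a subunit.

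Yangzhou geese, a domestic breed, received 1 of 3 diets. The control diet held 18% crude protein, the high protein diet 21%, and the lactulose diet 21% together with 0.3% lactulose, a sugar that is fermented by gut bacteria rather than digested. Each diet had 4 libraries of poly(A) RNA from whole ileum, called here by diet and label number (control 3, 4, 6 and 7, high protein 1, 3, 4 and 5, lactulose 2, 3, 5 and 6). The labels give neither age nor sex, and do not say whether each library is a separate bird, so a p-value here reflects sample-to-sample spread, which may be technical.

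Oxidative phosphorylation is carried out by enzyme complexes in the inner mitochondrial membrane. Complexes I and II pass electrons from NADH and succinate to ubiquinone, complex III passes them to cytochrome c and complex IV to oxygen, and complex V, the ATP synthase, uses the resulting proton gradient to make ATP. Complexes I, III, IV and V combine subunits encoded in the nucleus with subunits encoded by mitochondrial DNA, whereas complex II is wholly nuclear. In the intestine, absorptive enterocytes are rich in mitochondria and spend ATP on ion pumping that drives nutrient uptake.

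Total counts ranged from 38706155 to 48251825 per library. Members took 1.52% of all counts in control 3 and between 0.811% and 1.10% in each other library. Control 3 stood apart in the series: its median correlation with the other libraries was 0.938 across genes, against 0.957 to 0.963 for the rest, and a model that weights libraries by their spread gave it a weight of 0.197. Lactulose 3 and 5 were the most alike pair of libraries (r = 0.983 across genes). Markers of ileum and gut identity were detected, with FABP6, the ileal bile acid binding protein, at 621 to 3490.5 FPKM. Summed FPKM of 14 enterocyte markers varied widely inside each diet, from 1650 to 5880 in control, 1657 to 7638 in high protein and 1555 to 7839 in lactulose, with none of the 14 at 0 in every library.

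Most members were abundant. Mean FPKM over the 12 libraries exceeded 100 for 41 of the 66, and the median over members was 93.2 in complex I, 154 in complex II, 165 in complex III, 128 in complex IV and 232 in complex V. COX4I1, the regulatory subunit of cytochrome c oxidase, was the most abundant, with a mean of 559 FPKM. ATP5F1B, the catalytic beta subunit of the ATP synthase, led complex V with 401 FPKM. UQCRQ, a small subunit bound to cytochrome b, led complex III with 359 FPKM. NDUFS5, an accessory subunit of complex I, led that complex with 273 FPKM, and SDHD, a membrane anchor, led complex II with 254 FPKM.

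At the low end, NDUFA4L2, known in mammals as a hypoxia-induced gene, had a mean of 1.92 FPKM, and NDUFA2, an accessory subunit of complex I, had 4.03 FPKM. These 2 genes were above 1 FPKM in 11 of 12 libraries and the other 64 members in all 12, and no gene with a member name fell outside the level rule. The lowest of the others were COX7A2L, which joins complexes III and IV into supercomplexes, with 15.3 FPKM, and NDUFV3, an accessory subunit beside the NADH-oxidizing site, with 23.1 FPKM. The transcript length of COX7A2L, taken from its count and FPKM, was 6607 bases, against a median of 774.5 over members, and FPKM divides by length. In the core of complex I, NDUFV1, which binds NADH, had 130 FPKM and NDUFS1, the largest iron-sulfur subunit, 62.2 FPKM. ATP5IF1, COX4I2, COX6A2, COX7A1 and COX8B, which the list of names also held, and the mitochondrially encoded subunits were not analysed here.

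**Figure D1:**
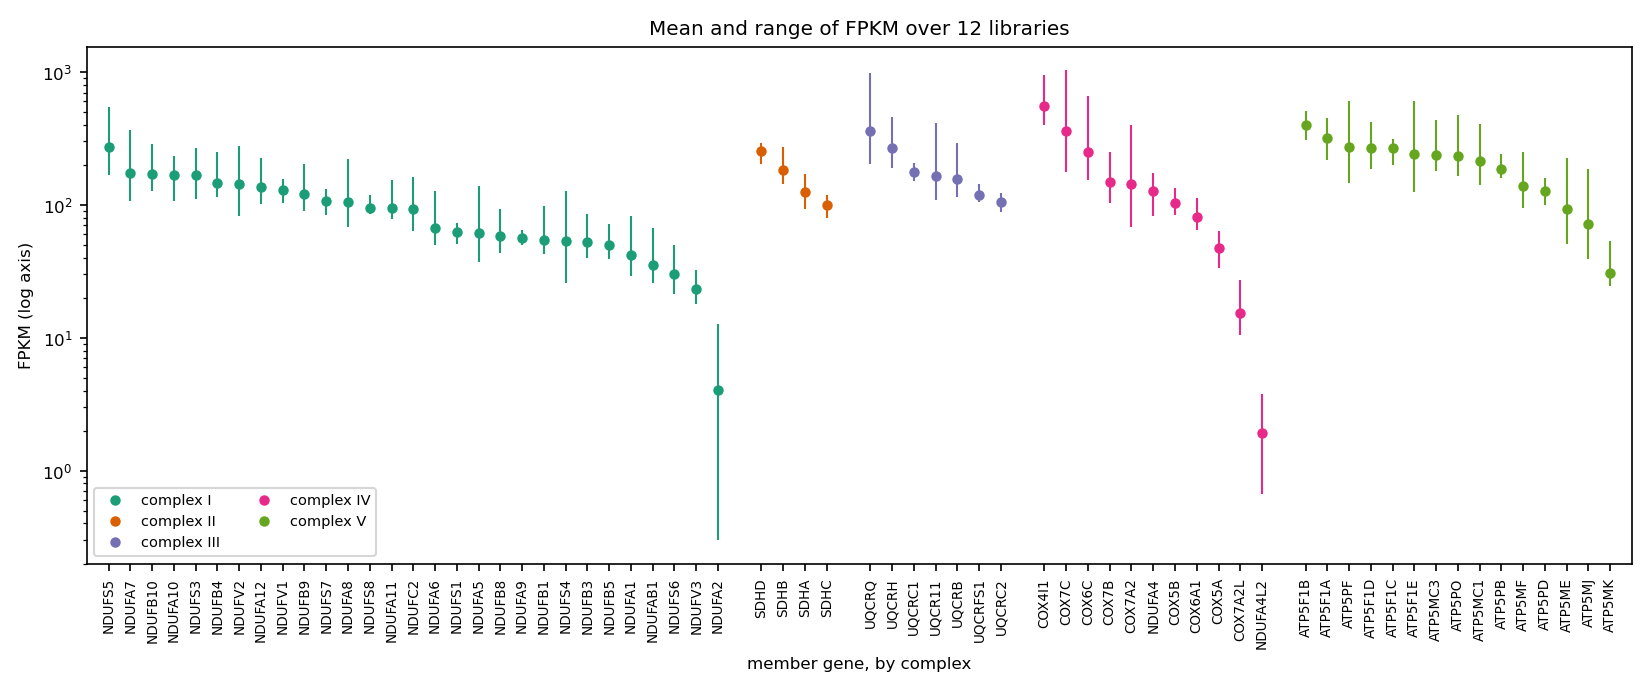
Mean FPKM of each of the 66 members over 12 libraries (points, log axis), with the lowest and the highest library as the ends of each line, by complex. Means run from 1.92 for NDUFA4L2 to 559 for COX4I1; NDUFA2 was at 0 in 1 library, and its line is cut at the lower end.

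Most members varied together over the 12 libraries, and 1 control library was far above the rest. A score was formed as the mean over members of log2 CPM (counts scaled to library size with TMM factors, prior count 2), after centring each gene over the 12 libraries. The score was 1.11 in control 3 and -0.07, -0.27 and -0.37 in control 4, 6 and 7. It was 0.24, -0.20, 0.35 and 0.13 in high protein 1, 3, 4 and 5, and -0.41, -0.18, -0.26 and -0.08 in lactulose 2, 3, 5 and 6. High protein 1, 4 and 5 lay above every lactulose library and above control 4, 6 and 7, while high protein 3 lay inside the lactulose range. The SD of the score was 0.69 in control, 0.24 in high protein and 0.14 in lactulose, and the pooled SD within diets was 0.43. In bulk tissue, fewer cells of a type and less RNA per cell cannot be told apart, and this holds for every difference below.

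**Figure D2:**
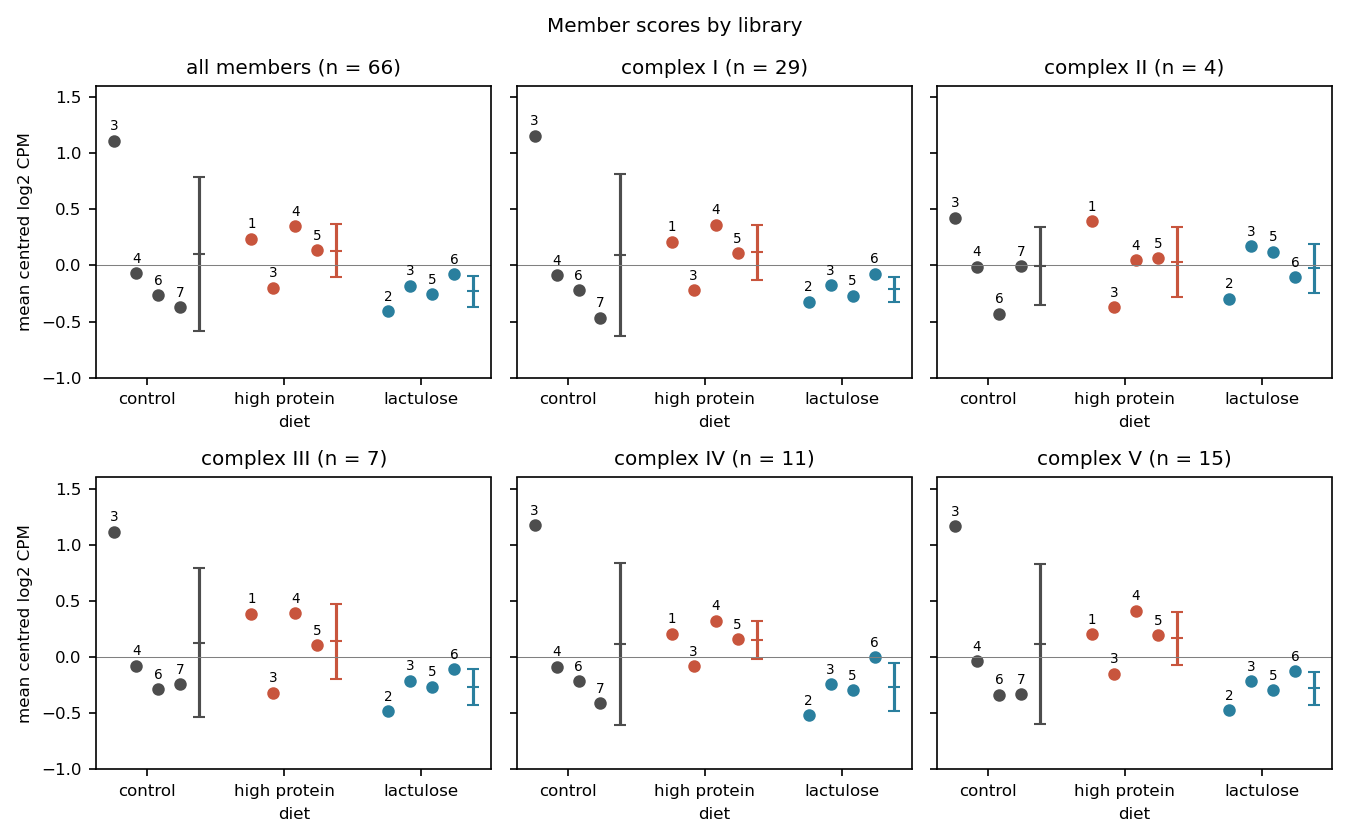
Score of all members and of each complex by library (points, numbered as in the labels), with the mean and SD of each diet (bars, n = 4); the y axis is the mean centred log2 CPM. Control 3 is the highest library in every panel, at 1.11 for all members, and complex II spreads differently from the other complexes.

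The complexes followed this pattern to different degrees. Scores of complexes I, III, IV and V correlated with the score of all members at r = 0.99 over the 12 libraries, which includes their own genes, and the score of complex II at r = 0.68. Over pairs of members the median r was 0.83, or 0.67 without control 3. Pairs of a complex II gene with a gene of another complex had a median r of 0.54, or 0.36 without control 3, whereas pairs within complex II had 0.68 and 0.74. Complex II was itself mixed: SDHB had r = 0.91 with the mean of the other members, against 0.70 for SDHD, 0.31 for SDHC and 0.24 for SDHA. These correlations describe 12 libraries that differ in diet, depth and control 3, and carry no test.

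The members that departed most from the common pattern were NDUFA4L2 (r = 0.11 with the mean of the other members), ATP5F1B (0.19), SDHA (0.24), NDUFS1 (0.29) and SDHC (0.31). SDHA encodes the flavoprotein that oxidizes succinate, and SDHC a membrane anchor of the same complex. SDHA correlated with the score of the 14 enterocyte markers at r = 0.93, NDUFS1 at 0.84, SDHC at 0.83, ATP5F1B at 0.70 and NDUFA4L2 at -0.30, against 0.37 for the score of all members. Some members nearer the common pattern also had high values: SDHD 0.81, UQCRFS1 0.75 and COX5A 0.75. Their r with the other members was 0.70, 0.76 and 0.81. UQCRB, the member most like the others, had 0.40 with the enterocyte score. The score of all members had r = -0.74 with goblet markers and -0.70 with B and plasma cell markers. Without control 3 these were -0.50 and -0.62, and r with the enterocyte markers was 0.42. SDHA stood at 435, 439, 280 and 476 CPM in control 3, 4, 6 and 7, at 586, 295, 409 and 428 in high protein 1, 3, 4 and 5, and at 355, 478, 492 and 382 in lactulose 2, 3, 5 and 6. Its lowest 3 libraries, control 6, high protein 3 and lactulose 2, were also the lowest 3 by the enterocyte score (-1.61, -1.47 and -1.61).

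NDUFA4 ran the other way, with r = -0.52 against the enterocyte score. It measured 125, 71.0, 84.9 and 52.2 CPM in control 3, 4, 6 and 7, then 60.0, 101, 95.7 and 99.8 in high protein 1, 3, 4 and 5. In lactulose 2, 3, 5 and 6 it measured 96.6, 54.6, 55.3 and 87.5 CPM, so that the 3 diets overlapped.

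**Figure D3:**
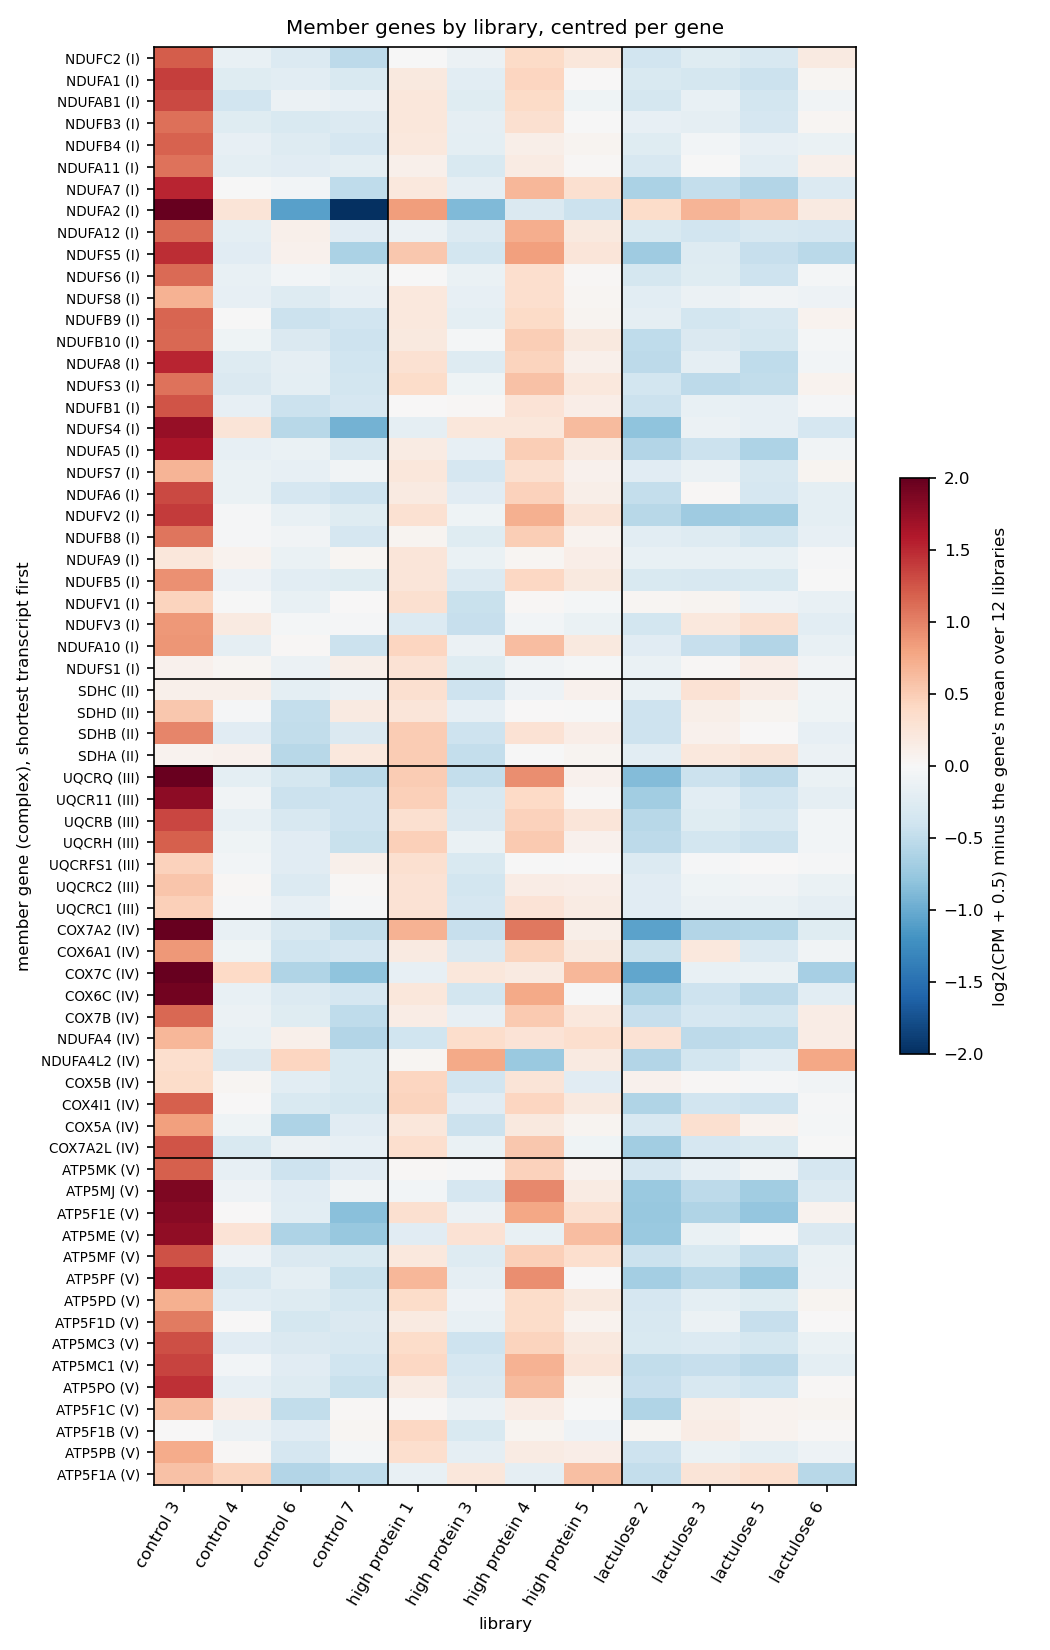
log2(CPM + 0.5) of the 66 members in 12 libraries, centred on each gene's mean over the libraries (color, red above and blue below), ordered by complex and then from the shortest to the longest transcript. The column of control 3 is red for nearly all members, most of all for short ones. NDUFA2, NDUFA4, NDUFA4L2, SDHA and SDHC break the pattern of their neighbours.

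Control 3 was the highest of the 12 libraries for 58 of the 66 members, and it was above the mean of the other 3 controls for all 66 on the TMM scale, by a median of 1.41 log2 units. All other tested genes had a median of 0.01. On deposited FPKM the median of the other genes moved to -0.38 and that of the members to 0.97. There 61 members stayed above 0, and ATP5F1B, NDUFA9, NDUFS1, SDHA and SDHC were below it, although all 66 lay above the median of the other genes.

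UQCRQ measured 647 CPM in control 3, against 142, 128 and 113 in control 4, 6 and 7. COX7A2, a small subunit of complex IV, measured 273 CPM in control 3, against 59.3, 52.7 and 46.7. ATP5F1B measured 687 CPM in control 3, against 631, 586 and 701. Control 3 was far above the other controls for UQCRQ and COX7A2 and inside their range for ATP5F1B. Other small subunits lay between, such as COX6A1 at 1.16 and COX5B at 0.53 log2 units above the mean of the other controls.

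The excess in control 3 went with transcript length, which was derived for each gene from its count and its FPKM and is approximate. This grouping was chosen after values were seen. The 22 shortest members, of 451 to 657 bases, were a median of 1.65 log2 units above the other controls in control 3, the middle 22 were 1.41 above and the longest 22 were 0.82 above. Other genes in the same 3 length ranges stood at 1.07, 0.93 and 0.12. The longest range, from 965 bases, reaches 6607 bases through COX7A2L alone, and its other genes are longer than most of its members. Other genes of 1000 to 1500 and 1500 to 2000 bases stood at 0.66 and 0.43. Over all tested genes outside the members the median was 0.79 below 500 bases and 1.0 for 500 to 750 bases, and it fell to -0.37 above 6000 bases. What part length or RNA quality had in the members' values was not tested.

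**Figure D4:**
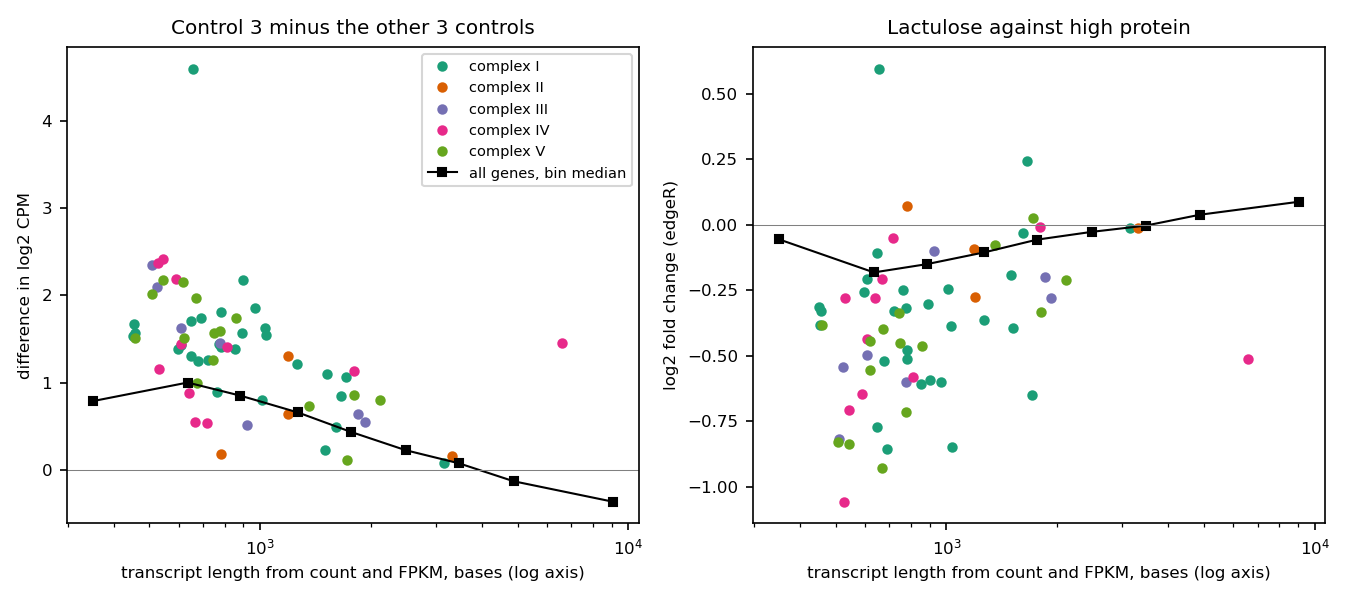
Difference of control 3 from the other 3 controls in log2 CPM (left) and log2 fold change of lactulose against high protein (right) against transcript length in bases (log axis), for the 66 members by complex and for all other tested genes as medians of length bins (squares). Short members and short genes in general stand highest in control 3, and most members lie above the line of the other genes at left and below it at right.

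High protein was first set against control, the effect of more dietary protein. By edgeR's quasi-likelihood test with Benjamini-Hochberg adjustment, 0 of 66 members passed an adjusted p of 0.05, as did 0% of the 16075 genes tested. The median log2 fold change of the members was -0.10, with 51 lower and 15 higher, beside -0.02 over all genes. By complex the medians were -0.13 in I, 0.03 in II, -0.07 in III, -0.04 in IV and -0.10 in V. At an unadjusted p under 0.05, 1 member was lower (1.86% of all genes), and 1 had diets that did not overlap (1.09% of all genes). Both counts are near the share over all genes. None of the 23 alternative fits called a member.

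That member in both counts was NDUFV3. It measured 69.7, 42.7, 36.8 and 37.1 CPM in control 3, 4, 6 and 7. The values in high protein 1, 3, 4 and 5 were 31.1, 27.3, 36.3 and 34.4 CPM. Every high protein library was below every control library, by a gap as narrow as 36.3 against 36.8 CPM, and the log2 fold change was -0.53 ± 0.22 (SE, unadjusted p = 0.0341, adjusted p = 0.9997 by edgeR). Without control 3 it was -0.27 ± 0.17 (edgeR unadjusted p = 0.150).

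This comparison turned on control 3. Without that library the median was 0.40, and 64 of the 66 members were higher in high protein. In this fit 34 members had an unadjusted p under 0.05 and were higher (3.66% of all genes tested), and 0 passed the adjusted threshold. The complex medians were then 0.39 in I, 0.11 in II, 0.48 in III, 0.43 in IV and 0.45 in V. The shift was not confined to the members. Medians of the shortest, middle and longest 22 members were 0.45, 0.45 and 0.23. Other genes in the same length ranges had 0.24, 0.25 and 0.04. Those of the longest range are longer than most of its members, so 0.23 and 0.04 are not closely matched for length.

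ATP5PF, coupling factor 6 in the stalk of the ATP synthase, shows the size of that dependence. It measured 522, 133, 145 and 122 CPM in control 3, 4, 6 and 7. The values in high protein 1, 3, 4 and 5 were 262, 146, 317 and 167 CPM. Every high protein library exceeded control 4, 6 and 7, by a gap as narrow as 146 against 145 CPM, and every one was below control 3. Its log2 fold change was -0.05 ± 0.44 with all 12 libraries (edgeR unadjusted p = 0.913, adjusted p = 0.9997). Without control 3 it was 0.74 ± 0.26 (edgeR unadjusted p = 0.0150, adjusted p = 0.776).

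**Figure D5:**
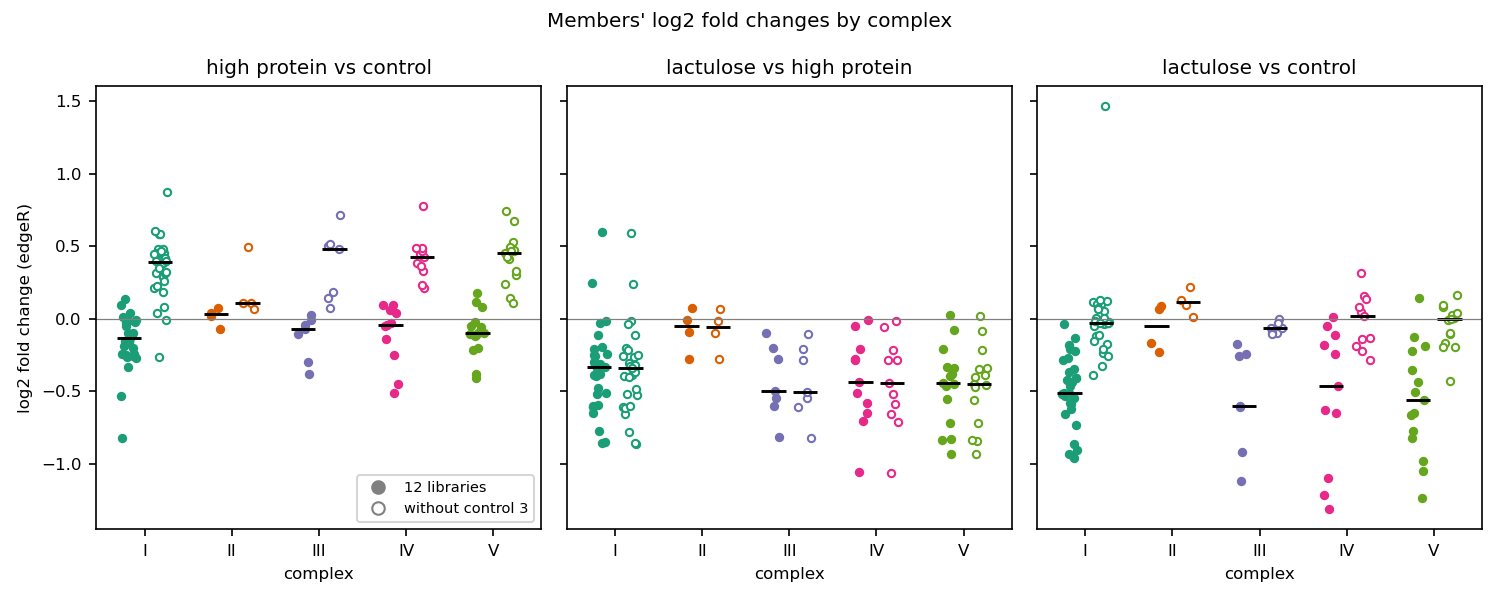
log2 fold changes by edgeR for the members of each complex in the 3 comparisons, with all 12 libraries (filled points) and without control 3 (open points); black lines are medians. Leaving out control 3 moves the median of high protein against control from -0.10 to 0.40 and that of lactulose against control from -0.48 to -0.02, while lactulose against high protein stays near -0.37.

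The second comparison asked what lactulose did when added to the higher protein diet, and it does not use the control libraries except in the estimate of spread. The members were lower in lactulose by a median log2 fold change of -0.37, with 62 of 66 lower, beside a median of 0.02 and 47.2% lower over all genes. By edgeR 0 members passed the adjusted threshold, as did 0% of all genes. An unadjusted p under 0.05 was reached by 2 members, both lower (3.33% of all genes), so the members' share was no larger than that of all genes. In 6 members every lactulose library was below every high protein library (3.71% of all genes), and in 0 members was it above.

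Those 6 were NDUFV2, NDUFA10, NDUFA7, NDUFA12 and NDUFB1 of complex I and ATP5MK of complex V. NDUFV2, an iron-sulfur subunit beside the NADH-oxidizing site, measured 174, 132, 229 and 168 CPM in high protein 1, 3, 4 and 5. It measured 95.3, 86.1, 87.0 and 122 CPM in lactulose 2, 3, 5 and 6. The diets did not overlap, and the log2 fold change was -0.85 ± 0.34 (edgeR unadjusted p = 0.0259, adjusted p = 0.845).

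NDUFA10, an accessory subunit of complex I, measured 374, 256, 426 and 320 CPM in high protein 1, 3, 4 and 5. It measured 238, 203, 185 and 252 CPM in lactulose 2, 3, 5 and 6. The gap between high protein 3 and lactulose 6 was narrow, and the log2 fold change was -0.65 ± 0.26 (edgeR unadjusted p = 0.0294, adjusted p = 0.845).

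A limma-voom fit with sample weights called these 2 members, at an adjusted p of 0.0384 for NDUFV2 and 0.0494 for NDUFA10. That fit called 0.603% of all genes as lower in lactulose. Its largest weights went to lactulose 3 (3.72) and lactulose 5 (2.38), the most alike pair of libraries. The adjusted p of both genes reached 1 under other alternatives, and none of those called a member.

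The difference was uneven over the complexes, and the difference between complexes was not tested. Medians were -0.33 in complex I (27 of 29 lower), -0.50 in complex III (7 of 7 lower), -0.44 in complex IV (11 of 11 lower) and -0.45 in complex V (14 of 15 lower). Complex II had a median of -0.05, with 3 of 4 lower. The 4 members that were higher were NDUFA2 (0.60 ± 1.03), NDUFV3 (0.24 ± 0.22), SDHC (0.07 ± 0.16) and ATP5F1B (0.03 ± 0.17), each with an unadjusted p of 0.293 or more by edgeR.

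The member with the most negative value was COX7A2. It measured 106, 47.7, 137 and 71.4 CPM in high protein 1, 3, 4 and 5, and 31.1, 43.7, 44.1 and 55.4 in lactulose 2, 3, 5 and 6. High protein 3 fell inside the lactulose range, and the log2 fold change was -1.06 ± 0.53 (edgeR unadjusted p = 0.0690, adjusted p = 0.845).

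COX4I1 measured 601, 376, 594 and 505 CPM in high protein 1, 3, 4 and 5. In lactulose 2, 3, 5 and 6 it measured 289, 336, 331 and 432. Only high protein 3 and lactulose 6 were out of order, and the log2 fold change was -0.58 ± 0.32 (edgeR unadjusted p = 0.0945, adjusted p = 0.859).

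In complex III, UQCRH, the hinge protein that contacts cytochrome c1, measured 281, 184, 290 and 213 CPM in high protein 1, 3, 4 and 5. It measured 140, 157, 149 and 193 CPM in lactulose 2, 3, 5 and 6. The diets overlapped through high protein 3 and lactulose 6, and the log2 fold change was -0.60 ± 0.32 (edgeR unadjusted p = 0.0841). UQCRC1, a core subunit, had -0.28 ± 0.18, UQCRC2, its partner, -0.20 ± 0.19, and UQCRFS1, the Rieske iron-sulfur protein that carries electrons, -0.10 ± 0.17.

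In complex V, ATP5MC1, a gene for the rotating c ring, measured 213, 127, 258 and 188 CPM in high protein 1, 3, 4 and 5. It measured 113, 115, 111 and 139 CPM in lactulose 2, 3, 5 and 6, below all but high protein 3, which lay under lactulose 6. The log2 fold change was -0.72 ± 0.35 (edgeR unadjusted p = 0.0636). ATP5F1B measured 912, 555, 712 and 639 CPM in high protein and 703, 757, 717 and 694 in lactulose, in the same library order.

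Core subunits of the matrix arm of complex I, to which NDUFV2 belongs, were spread out. NDUFS1 had a log2 fold change of -0.01 ± 0.14, NDUFV1 of -0.03 ± 0.18, NDUFS7 of -0.24 ± 0.20, NDUFS8 of -0.25 ± 0.20 and NDUFS3 of -0.61 ± 0.31. NDUFAB1, the mitochondrial acyl carrier protein that is also a subunit of complex I, had -0.33 ± 0.33. Among complex II genes SDHA had -0.01 ± 0.23, SDHB, the iron-sulfur subunit, -0.27 ± 0.30, and SDHD -0.09 ± 0.20.

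Leaving out control 3 hardly moved the fold changes of this comparison (median -0.38) but narrowed the estimated spread. In that fit 38 members had an unadjusted p under 0.05 and were lower (7.14% of all genes tested), and 0 passed the adjusted threshold. NDUFV2 then had -0.85 ± 0.17 with an adjusted p of 0.297. Transcript length went with this comparison too: the medians of the shortest, middle and longest 22 members were -0.44, -0.46 and -0.23. Those of other genes in the same length ranges were -0.12, -0.18 and -0.01, where the last are longer than most of the longest members. Other genes of 1000 to 1500 and 1500 to 2000 bases, where most of the longest members lie, had -0.11 and -0.06.

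The third comparison set lactulose against control. The median log2 fold change of the members was -0.48, with 62 of 66 lower, beside 0.00 over all genes. By edgeR 0 members passed the adjusted threshold, as did 0% of all genes. An unadjusted p under 0.05 was reached by 12 members, all lower (3.94% of all genes). The diets did not overlap for 2, both lower (2.12% of all genes), which is near the share over all genes. None of the 23 alternative fits called a member.

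Those 2 were ATP5MJ, a small membrane subunit of the ATP synthase, and NDUFA12, an accessory subunit of complex I. ATP5MJ measured 122, 30.9, 28.2 and 31.5 CPM in control 3, 4, 6 and 7, and 19.5, 23.0, 20.3 and 27.3 in lactulose 2, 3, 5 and 6. All lactulose libraries were lower, and the log2 fold change of -1.24 ± 0.45 (edgeR unadjusted p = 0.0177, adjusted p = 0.771) drew most of its size from control 3.

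Without control 3 the median over members was -0.02, with 38 of 66 lower and 0 at an unadjusted p under 0.05. The comparison shares its control libraries with the first and its lactulose libraries with the second. Taken without control 3, COX4I1 had log2 fold changes of 0.45 ± 0.20, -0.59 ± 0.18 and -0.14 ± 0.20 in the order in which the comparisons are given here. SDHA had 0.11 ± 0.25, -0.02 ± 0.23 and 0.09 ± 0.25.

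Lists of related genes outside the members were read in the lactulose against high protein comparison, and 0 genes were called in each list. Of 44 tested factors that assemble the complexes, 35 were lower, with a median of -0.18. An unadjusted p under 0.05 by edgeR was reached by 3 of the 44, while 3.33% of all genes reached it and were lower. TIMMDC1 and COA7 were among them and were named after their values were seen. TIMMDC1, which helps to build the membrane arm of complex I, had -0.49 ± 0.16 (edgeR unadjusted p = 0.0105). COA7, a factor for respiratory complex assembly, had -0.71 ± 0.25 (edgeR unadjusted p = 0.0133). All 72 tested proteins of the mitochondrial ribosome, which translates the mitochondrially encoded subunits, were lower, with a median of -0.34. All 72 tested cytosolic ribosomal protein genes were lower as well, with a median of -0.78. An unadjusted p under 0.05 by edgeR was reached by 10 of the 72 mitochondrial and 24 of the 72 cytosolic ribosomal genes. It was reached by 2 of the 66 members.

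Among 11 electron carriers and adenine nucleotide exchangers 10 were lower (median -0.17), including CYC1 at -0.23 ± 0.25 and CYCS, cytochrome c, at -0.24 ± 0.32. CYC1 encodes cytochrome c1, a subunit of complex III that the name rule did not match. Of 12 citric acid cycle genes 9 were lower (median -0.04), and of 16 glycolysis genes 10 (median -0.05). Of 15 regulators of mitochondrial genes 5 were lower (median 0.08). NRF1, a transcription factor of respiratory genes, had 0.43 ± 0.20 (edgeR unadjusted p = 0.0542), and PPARGC1A, a coactivator of mitochondrial biogenesis, 0.28 ± 0.26.

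Across the 12 libraries the member score correlated at r = 0.98 with the score of the assembly factors, 0.97 with that of the mitochondrial ribosome and 0.91 with that of the cytosolic ribosome. Without control 3 these were 0.93, 0.91 and 0.83. The genes outside the members most like the member score were PEX10, ROMO1, LAMTOR3, SERP1 and MRPL23, with r of 0.98 over 12 libraries and between 0.93 and 0.95 without control 3. These values describe likeness over libraries that share depth and control 3.

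Cell type markers were set beside the second comparison. Of 10 macrophage and dendritic cell markers, all 10 were lower in lactulose than in high protein, with a median of -0.58; their summed FPKM was 480 to 601 in high protein and 352 to 458 in lactulose, and none was at 0 in every library. Of 14 enterocyte markers, 9 were higher and 5 lower, with a median of 0.24. T and NK cell markers were lower for 7 of 7 (median -0.52; summed FPKM 194 to 331 in high protein and 168 to 218 in lactulose). Enteroendocrine markers were higher for 8 of 9 (median 0.44; summed FPKM 157 to 284 and 244 to 371). B and plasma cell markers were higher for 6 of 8 (median 0.36; summed FPKM 123 to 261 and 175 to 276). Goblet markers were higher for 3 of 4 (median 0.26), ileum and gut identity markers for 7 of 8 (0.35) and smooth muscle markers for 7 of 9 (0.13). Crypt and proliferation markers were lower for 7 of 12 (median -0.14). Skeletal or cardiac muscle markers were higher for 3 of 3 tested (median 0.48), and the 1 erythroid marker tested was lower (-0.31). An unadjusted p under 0.05 by edgeR was reached by 8 of the 10 macrophage and dendritic cell markers. It was reached by 3 of the 7 T and NK cell markers and by at most 2 markers of each other list. At that p 3.33% of all genes were lower. No marker of these lists was called by edgeR, and none was at 0 in every library. The part of any of these cell types in the members' values was not tested.

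Among the members, 4 are placed on chromosome Z, the avian sex chromosome, by the table of gene names for another goose assembly: ATP5F1A, ATP5ME, COX7C and NDUFS4. Male birds carry a pair of Z chromosomes and females a single one. ATP5F1A, the alpha subunit of the ATP synthase, measured 967, 883, 430 and 455 CPM in control 3, 4, 6 and 7, then 582, 757, 574 and 984 in high protein 1, 3, 4 and 5. In lactulose 2, 3, 5 and 6 it measured 467, 778, 818 and 439 CPM. In each diet 2 libraries lay at 757 or more and 2 at 582 or less.

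COX7C, a small subunit of complex IV, measured 726, 226, 112 and 97.9 CPM in the control libraries in that order. The high protein libraries gave 153, 200, 193 and 270 CPM, and the lactulose libraries 83.3, 154, 156 and 107 CPM. In each diet its higher 2 libraries were the ones in which ATP5F1A was higher, and the same held for ATP5ME, a small membrane subunit of the ATP synthase. For NDUFS4, an accessory subunit of complex I, high protein 3 and 4 were almost equal, at 51.6 and 52.0 CPM. The summed CPM of 694 tested genes placed on Z was 42724 to 68353 in the 6 libraries with higher ATP5F1A and 30467 to 41877 in the other 6. The labels give no sex, and its part in these values was not tested.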

How the data were processed

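Per the labels, poly(A) RNA of goose ileum was sequenced with a strand-marking kit. Per the submitters' processing notes, the tools were StringTie 2.1.6, HISAT2 2.2.1 and cutadapt 1.9, besides edgeR and DESeq2, with no roles given; the genome build is not given in the sources used here, nor whether counting used the strand. The authors deposited raw counts and FPKM values per gene, per the file headers. Small counts clustered at 4 (5063 values, against 1799 at 3), so counting error is larger than the counts give. Counts were tested with edgeR 4.0.16 in R 4.3.3 (quasi-likelihood, TMM, filterByExpr with a minimum count of 10, all 12 libraries, diet as the only term), two-sided, adjusted over 16075 genes. Standard errors are the size of the log2 fold change over the square root of F. FPKM served for levels between genes. Transcript length was taken from the ratio of count to FPKM, rescaled per library; it was constant within 2% for 97.4% of 13389 genes. The count tests were tested on simulated data.

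Of 7268 placeholder names 720 were replaced through identifiers in a name table of the Taihu goose reference assembly. Members and lists were chosen with earlier results of these data known. Named were members with the smallest p in each complex and comparison, the highest and lowest of each complex, and a list of core subunits and isoforms; NDUFA12, NDUFB1, NDUFB5, NDUFS3, NDUFS4, NDUFS7, NDUFS8, NDUFA9, COX5B, COX6A1, COX7B, ATP5F1C and ATP5F1E were named after their values were seen. Promoter motifs and protein sequences were not analysed here. Alternatives were 11 other fits, among them limma 3.58.1 on log2(FPKM + 1) and DESeq2 1.42.0, and 12 that each left out 1 library.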

Additional observations from a re-analysis of the deposited data

Results flagged for a closer look

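A library was singled out where its gap to the next library, divided by the range of its diet, exceeded 0.83, the critical value of Dixon's test for 4 samples; chance alone marks about 1 group in 20. That rate is for each group alone. The members varied together (median r over pairs 0.83), so the marks below are not independent. Over all members, 198 groups were searched on the CPM scale, and control 3 was marked as high for 41 of the 66. Among the members named by rule these were COX7A2 (0.944), COX7A2L (0.926), ATP5MK (0.908), UQCRH (0.871), NDUFV2 (0.925), COX6C (0.963), ATP5PF (0.943), ATP5MJ (0.965), SDHB (0.886), NDUFS6 (0.953), NDUFA7 (0.864), UQCR11 (0.922), NDUFAB1 (0.911), ATP5MC1 (0.886), COX4I1 (0.851) and UQCRQ (0.944). The score of complex III was marked in control 3 as well, at 0.852.

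Outside control 3, lactulose 6 was marked as high for 5 members, lactulose 2 as low for 2, high protein 4 as high for 1 and high protein 1 as low for 1. Among those named by rule, ATP5MK was high in high protein 4 (0.844), NDUFA4 was low in high protein 1 (0.869), UQCRFS1 was low in lactulose 2 (0.884) and ATP5MC1 was high in lactulose 6 (0.844). The others were NDUFA9 (0.979), NDUFB5 (0.937), COX7B (0.839) and ATP5F1E (0.834), high in lactulose 6, and ATP5F1C (0.890), low in lactulose 2.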

How the results depend on the processing

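The median of the members for lactulose against high protein was negative under each of the 23 alternatives. With library totals as the only scaling, all genes moved to a median of 0.11 and the members to -0.27, which is -0.37 relative to that shift. Limma-voom with sample weights called 2 members in this comparison, NDUFV2 (-0.99) and NDUFA10 (-0.78), against 0 in each other fit. For high protein against control the sign of the median turned: it was 0.0398 with limma on log2(FPKM + 1), 0.0382 with a pseudocount of 0.1 and 0.31 with sample weights. Leaving out 1 library gave medians from -0.26 to 0.40 there (0.40 without control 3, 0.004 without high protein 3), from -0.43 to -0.27 for lactulose against high protein, and from -0.64 to -0.0218 for lactulose against control (-0.0218 without control 3). The cause was not tested. Deviations of same-numbered libraries from their diet means correlated at r from -0.13 to 0.20. Differently numbered libraries of different diets ranged from -0.40 to 0.47. This check cannot exclude a shared pen or block, and the labels name neither. With the numbers as a replicate block the medians were -0.25, -0.29 and -0.49 in the 3 comparisons, with 0 members called. With lactulose 3 and 5 averaged the medians against high protein and control were -0.35 and -0.46. The low counts of NDUFA2 and NDUFA4L2 limit what can be said of them.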
